A study of Mus musculus with 18 samples.

Results

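Naive CD4 T cells of the mouse spleen that carried high or low signal of an Nr4a1 reporter were compared by ATAC-seq, in which Tn5 transposase cuts and tags open DNA. The comparison used 6 of the 18 libraries of the series, 3 sorted as high and 3 as low, chosen by the organ and reporter level in their titles. Of 33115 regions merged from the peaks of all 18 libraries, 25531 had a peak in a spleen library and 10916 had one in all 6. Both groups were of genotype WT and strain C57BL6/J, untreated and freshly prepared, and differed by the sort gate alone, as far as the labels say. High and low refer to tonic TCR stimulation (T cell receptor signalling in resting cells), read out by a fluorescent Nr4a1-dsGFP reporter. The sources used here do not give the promoter of the reporter, its insertion site or copy number, the age of the mice or any pooling of animals. The series addresses the effects of tonic stimulation and of the tissue on the open chromatin of naive cells, and the mesenteric and axillary lymph node libraries served here to define the merged regions, to show whether spleen regions had peaks elsewhere and to test whether the spleen difference departed from theirs.

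Nr4a1 encodes an orphan nuclear receptor that is switched on within minutes to hours of TCR signalling, so that GFP placed under its control marks how much signal a resting T cell has received. Resting naive T cells obtain such signals from self peptide on MHC molecules. Genes induced by the same signals include Egr1 to Egr3, Cd69, Cd5 and phosphatase genes such as Dusp1, while quiescence factors such as Klf2 and Tcf7 belong to the resting state.

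Promoters of 6 genes are printed here as examples. Each lies wholly inside a region called for the reads in the 10 kb around its peak. So do promoters of further genes that are not printed, such as Kctd12, Abtb1 and Plxnc1. High cells had more of these reads at Nr4a1, Dusp1, Lats2 and Ddit3 and fewer at Gng12 and Klf6. Reads over the highest point of the peak hardly differed at Dusp1 (log2 0.08) and Klf6 (log2 0.02). Each promoter runs from 250 bases before to 50 after the annotated start, on the strand of the gene, from RefSeq on GRCm38.p6. Capitals mark matches on either strand to 1 of 11 motif strings. Nr4a1 is at chr15:101266596-101266895 (plus strand), Dusp1 at chr17:26508423-26508722 (minus) and Lats2 at chr14:57746074-57746373 (minus). Ddit3 is at chr10:127290543-127290842 (plus), Gng12 at chr6:66896147-66896446 (plus) and Klf6 at chr13:5861239-5861538 (plus).
Nr4a1: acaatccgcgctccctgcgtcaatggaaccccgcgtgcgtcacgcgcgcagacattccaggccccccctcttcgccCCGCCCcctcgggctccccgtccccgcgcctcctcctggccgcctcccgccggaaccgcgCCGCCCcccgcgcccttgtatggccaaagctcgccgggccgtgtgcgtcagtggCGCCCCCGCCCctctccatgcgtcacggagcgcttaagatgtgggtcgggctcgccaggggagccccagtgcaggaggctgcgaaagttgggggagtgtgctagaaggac
Dusp1: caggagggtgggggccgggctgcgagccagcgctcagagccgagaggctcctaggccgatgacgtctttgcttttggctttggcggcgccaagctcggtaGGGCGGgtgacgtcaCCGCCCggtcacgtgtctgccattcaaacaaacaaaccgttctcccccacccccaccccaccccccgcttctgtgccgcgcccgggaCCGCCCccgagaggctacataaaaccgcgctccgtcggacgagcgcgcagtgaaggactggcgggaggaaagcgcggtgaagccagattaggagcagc
Lats2: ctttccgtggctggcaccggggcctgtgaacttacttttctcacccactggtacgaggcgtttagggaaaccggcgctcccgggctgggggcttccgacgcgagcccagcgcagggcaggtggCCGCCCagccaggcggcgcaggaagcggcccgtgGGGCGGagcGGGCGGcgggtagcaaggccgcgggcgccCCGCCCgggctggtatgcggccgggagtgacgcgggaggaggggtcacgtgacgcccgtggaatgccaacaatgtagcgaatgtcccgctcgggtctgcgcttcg
Ddit3: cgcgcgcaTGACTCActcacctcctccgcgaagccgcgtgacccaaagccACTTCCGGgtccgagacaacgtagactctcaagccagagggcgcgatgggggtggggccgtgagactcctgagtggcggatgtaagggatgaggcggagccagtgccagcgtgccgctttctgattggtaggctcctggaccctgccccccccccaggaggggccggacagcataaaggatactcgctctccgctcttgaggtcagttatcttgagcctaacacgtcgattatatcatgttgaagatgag
Gng12: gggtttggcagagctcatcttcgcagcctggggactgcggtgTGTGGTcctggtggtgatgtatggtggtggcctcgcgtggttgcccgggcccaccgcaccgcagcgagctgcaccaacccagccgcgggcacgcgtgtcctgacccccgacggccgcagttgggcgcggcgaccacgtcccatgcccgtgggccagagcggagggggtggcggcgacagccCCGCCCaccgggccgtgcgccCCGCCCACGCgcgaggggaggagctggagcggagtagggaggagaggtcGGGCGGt
Klf6: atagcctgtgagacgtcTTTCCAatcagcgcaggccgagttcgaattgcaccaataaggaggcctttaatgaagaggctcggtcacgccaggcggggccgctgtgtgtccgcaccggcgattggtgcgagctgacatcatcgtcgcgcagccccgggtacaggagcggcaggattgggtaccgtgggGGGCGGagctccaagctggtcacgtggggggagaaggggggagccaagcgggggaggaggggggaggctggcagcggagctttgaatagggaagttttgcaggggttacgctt
The strings searched on both strands were TGANTCA (AP-1), AAAGGTCA (the NR4A monomer element), GCGTGGGCG and GCGGGGGCG (EGR), TGGAAA (NFAT core), CCGGAAGT (ETS), TGTGGT (RUNX), ATCAAAG (TCF/LEF), GGGCGG (KLF and SP), an NF-kB string and an IRF string. The KLF and SP string overlaps both EGR strings where both occur together. The GGGCGG string was in 46.4% of all 17274 genes with a promoter sequence and in 76.8% of the 4805 whose promoter lay wholly inside a tested region. The respective shares were 0.764% and 1.31% for GCGTGGGCG, 3.78% and 6.26% for GCGGGGGCG, and 7.11% and 3.35% for AP-1. They were 5.25% and 11% for ETS, 15.1% and 10.5% for RUNX and 19.8% and 13.0% for the NFAT core. Nr4a1 held 3 matches of GGGCGG and 1 of GCGGGGGCG, Dusp1 held 3 and Lats2 held 4 of GGGCGG. Ddit3, a stress-response transcription factor gene, held 1 AP-1 and 1 ETS match. The printed Gng12 promoter held 3 of GGGCGG, 1 of GCGTGGGCG and 1 RUNX match, and Klf6 held 1 of GGGCGG and 1 NFAT core. Another Gng12 promoter in the same region (chr6:66896641-66896940, not printed) held no match to any of the strings. A match is a string in the sequence and does not show that a factor was bound.

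The 6 peak lists held 14514 to 18008 peaks. Per library, the genome background recovered from the peak values was 13.2 to 14 reads per 10 kb in high cells and 14.4, 13.3 and 9.84 in low replicates 1, 2 and 3. Low replicate 3 also had the longest fragment estimate, 233 bp against 161 to 170 bp in the other 5. The 3 libraries of each level differed by no more than counting noise (chi-square per shared region 0.853 to 0.911), while high and low libraries differed by more (1.12 to 1.3). The labels call them biological replicates without naming animals, so p-values reflect only the scatter among these libraries, and that scatter may be technical. Markers of naive CD4 T cells had a peak within 1000 bp of their start for 10 to 12 of 18 genes in high and 8 to 12 in low libraries. Cd3d, Tcf7, Il7r and Thy1 had none in any of the 6. B cell markers were open for 2 to 3 of 12 genes in high and 2 in low libraries. Cr2 and Pou2af1 were open in all 6 libraries, and Cd79a, Ms4a1 and Pax5 in none. CD8 T cell markers were open for 2 to 3 of 5 genes in high and 2 in low libraries. Cd8b1 and Runx3 were open in all 6 libraries, and Cd8a in none. NK cell, myeloid, dendritic and erythroid lists had at most 2 open genes in a library, and the stromal list had 0 of 10.

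The clearest difference lay around Nr4a1 itself. A block of 22 regions over 152801 bp (chr15:101210096-101362896) holds Grasp, Nr4a1, Atg101 and the area up to Krt80. It was drawn by joining neighbouring regions to the Nr4a1 start while their median local reads exceeded 10 times the genome background. The extent of the block and its lower limit follow from that rule. The 20 block regions with a spleen peak had local reads of 10.3 to 125 times the genome background. The median peak stood at 3.75 times. Local reads are the reads in the 10 kb around a peak that the caller used as its background, and they describe how open the neighbourhood is, the peak included. Over the 12 block regions present in all 6 libraries, the median was 56.9, 55.2 and 55.3 times background in high and 36.1, 36.0 and 40.4 times in low libraries. The groups did not overlap, and the ratio of the means was 1.49 (55.8 ± 0.962 against 37.5 ± 2.54, SD, n = 3 each, exact permutation p = 0.1, the smallest that 3 against 3 can give). The region at the Nr4a1 start (chr15:101266306-101268384, 499 bp from it, inside the gene) had 1397, 1398 and 1385 scaled local reads in high and 791, 868 and 925 in low libraries. The log2 difference was 0.70 ± 0.04 (SE, limma adjusted p = 5.65e-23). At chr15:101253681-101254450, 12781 bp from the start, the values were 1751, 1752 and 1730 against 944, 990 and 1132 (log2 0.78 ± 0.04). All 12 regions were higher in high cells by the limma test, by 0.52 at Atg101 (an autophagy gene) to 1.02 at the distal Krt80 region on the log2 scale.

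**Figure D1:**
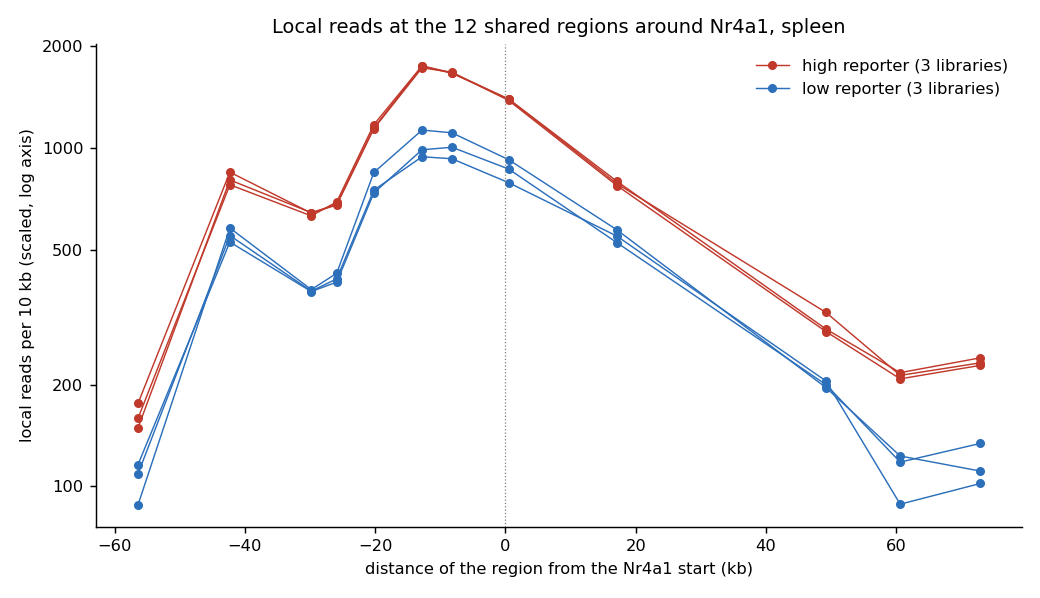
Scaled local reads per 10 kb (log axis) at the 12 block regions present in all 6 spleen libraries, against the distance of each region from the Nr4a1 start in kb. Each line is 1 library, and the 3 high libraries lie above the 3 low ones at every region, at 1385 to 1398 against 791 to 925 beside the start.

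Summit reads, the reads over the highest point of each peak, had smaller log2 differences than local reads at the 4 Nr4a1 regions tested, though not at Smim41 (0.62 against 0.59). The start region of Nr4a1 had 176, 157 and 153 summit reads in high against 120, 128 and 151 in low libraries (log2 0.29 ± 0.07, limma adjusted p = 0.0754), a difference that did not pass. Only the region at chr15:101258253-101259022 was called among the 4 Nr4a1 regions tested, with 134, 137 and 138 against 93.5, 103 and 118 reads (log2 0.38 ± 0.08, limma adjusted p = 0.00596). Around it, Grasp (16764 bp from its start, 97.5, 97.8 and 102 against 61.7, 54.7 and 72.7), Smim41 and both Krt80 regions were called as well, and 5 of the 13 regions higher by summit reads lay in the block. Without high replicates 1, 2 and 3 and low replicates 1 and 2 in turn, the limma adjusted p of this Nr4a1 region was 0.0698, 0.149, 0.101, 0.269 and 0.0952. The fold that the authors' deposited lists give there ran the opposite way at the called Nr4a1 region (4.53, 4.55 and 4.7 in high, 5.43, 5.62 and 5.34 in low libraries). That fold divides summit reads by local reads. Reads from the reporter construct and from the gene's own locus cannot be told apart in these files, so the block is kept separate in what follows. In bulk ATAC-seq, a larger share of open cells and more cuts per cell cannot be told apart either.

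The other genes singled out as TCR-responsive, Nr4a2, Nr4a3, Egr1 to Egr3, Cd69 and Cd5, had no called region. Few of their regions were tested: 3 at Nr4a3, 5 at Cd69, 2 at Egr2 and 1 each at Egr1 and Egr3. Over all tested regions only 1.03% were called by local and 0.165% by summit reads, so the absence of calls is near that share. Nr4a3 had 6 regions, 3 of them in all 6 libraries, with log2 differences of local reads from -0.18 to -0.01 (smallest limma adjusted p 0.617). Nr4a2 had 3 regions and none in all 6 libraries, so it was not tested. At the Egr2 start, local reads were 255 ± 15.9 in high and 262 ± 6.45 in low libraries, and 133 bp from the nearer end of Egr1 215 ± 5.86 and 200 ± 24.1 (SD, n = 3 each). A region 2438 bp from Egr3 had 156, 144 and 137 local reads in high against 128, 122 and 118 in low libraries (log2 0.24, limma adjusted p = 0.174). The groups did not overlap there, while summit reads were 22.5 ± 3.64 and 22.3 ± 1.56, and Egr3 lies on chromosome 14, which was shifted upwards in high cells as described with the chromosomes. Cd69, an early activation gene, had 8 regions, of which 5 were tested, with log2 local differences of -0.14 to 0.01 and none called. Cd5, whose surface level follows TCR signal strength, had 4 regions and none in all 6 libraries. A peak at its start was called in every high library and in 2 low ones.

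Across all shared regions, local reads were tested at 10833. In high cells 47 were higher (0.434%) and 65 lower (0.6%), 1.03% in all, by limma with Benjamini-Hochberg adjustment at 0.05. At an unadjusted p under 0.05 there were 706 (6.52%) and 805 (7.43%). Outside the Nr4a1 block this left 35 regions at 34 loci higher, by 0.35 to 0.89 on the log2 scale, and 65 at 56 loci lower, by -0.96 to -0.2. High and low libraries did not overlap at any of these 100. The 100 were called from these same values, so such separation is no further support, here or at regions named below from either test. Summit reads, which share the peak's own reads with the window, had the same sign in 34 of 35 and 64 of 65. The median log2 difference over all regions was 0.002 with an SD of 0.2. Genes are those with the nearest start, or the nearer end where no start is listed (Cd4, Tox, Cd28, Poldip3, Krt80, Ddx23, Epas1, Egr1, Egr3, Cd69, Ccr7 and Lsp1 among those named), and need not be the genes a region acts on.

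**Figure D2:**
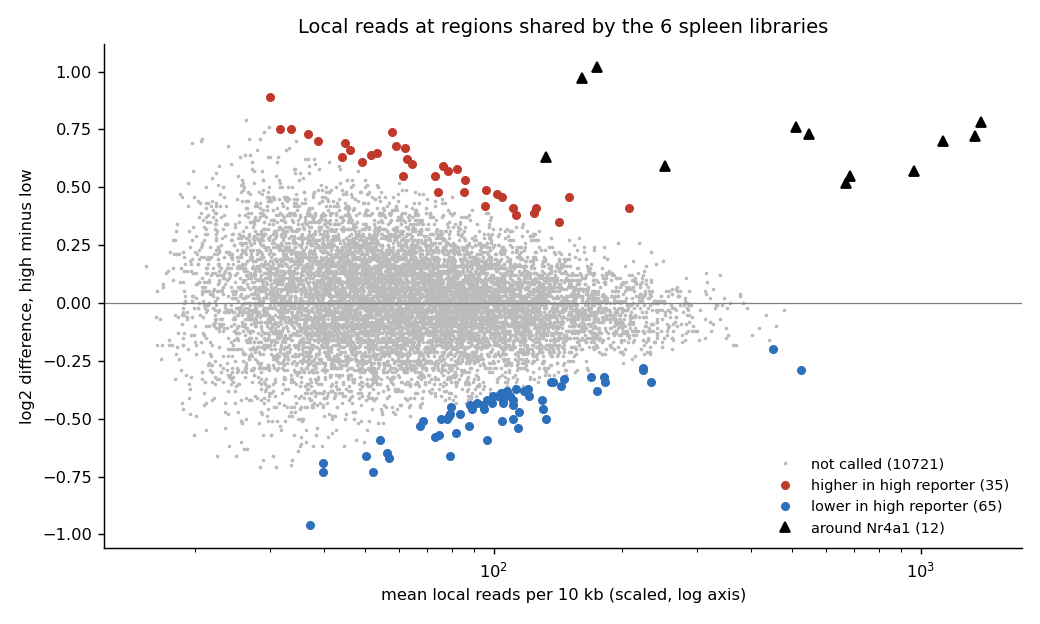
Log2 difference of local reads, high minus low, against the mean of scaled local reads (log axis) at 10833 regions of 6 spleen libraries. Red and blue points are the 35 and 65 called regions outside the Nr4a1 block, black triangles the 12 block regions, which lie at 0.52 to 1.02, and grey points were not called.

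Regions with more local reads in high cells included the start of Dusp1. The gene encodes a nuclear phosphatase that switches off MAP kinases and is an immediate early gene. Its start region (chr17:26507987-26509116) had 184, 178 and 161 local reads in high and 125, 131 and 126 in low libraries, a 1.37-fold difference (log2 0.46 ± 0.08 SE, limma adjusted p = 0.000866). Summit reads at Dusp1 differed by 0.08 on the log2 scale. Kctd12, which encodes an auxiliary subunit of GABA-B receptors, had 240, 249 and 222 against 178, 184 and 171 local reads (chr14:102982150-102983339, log2 0.41 ± 0.07, limma adjusted p = 0.000285), the smallest p among the higher regions outside the block. Poldip3, an mRNA export factor gene, had 74.0, 77.4 and 65.7 against 40.6, 40.7 and 49.1, 97 bp from its nearer end (log2 0.74 ± 0.15). Lats2, a kinase gene of the Hippo pathway, had 83.8, 102 and 94.7 against 64.6, 65.8 and 57.9 (chr14:57745777-57746475, log2 0.57 ± 0.12, limma adjusted p = 0.00727). Plxnc1, a semaphorin receptor gene, had 126, 121 and 117 against 94.1, 90.0 and 81.9 (log2 0.46 ± 0.10). In each of these the lowest high library lay above the highest low one. The other named regions were near Scel (a cornified envelope gene, 43716 bp away), Edn2 (endothelin 2, 128477 bp away), Parp4, Zfhx2, Hdc (histidine decarboxylase), Cenpj (a centriole gene) and Acod1 (the itaconate synthase gene), with log2 differences of 0.49 to 0.68. Parp4 and Cenpj stand side by side, and their windows overlap. Ddit3, called as well, had 154, 173 and 152 against 131, 118 and 126 (log2 0.35, limma adjusted p = 0.027).

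Regions with fewer local reads in high cells held several T cell genes. Cd4, the coreceptor gene that defines these cells, had 477, 461 and 477 local reads in high and 581, 595 and 549 in low libraries at a region inside the gene, 2521 bp from its nearer end (chr6:124885036-124886417). The value was 1.22-fold lower in high cells (log2 -0.29 ± 0.05, limma adjusted p = 7.4e-05), and the summit reads there were 69.4, 65.2 and 68.4 against 88.7, 86.6 and 81.0 (log2 -0.34, limma adjusted p = 0.199). Tox, an HMG-box factor gene of T cell development, was called 597 bp from its nearer end (156, 152 and 148 against 208, 185 and 199, log2 -0.38) and 89166 bp into the gene (86.7, 88.9 and 83.5 against 131, 121 and 117, log2 -0.51, limma adjusted p = 0.00293). Cd28, the costimulatory receptor gene, had 90.6, 81.3 and 85.4 against 120, 119 and 102 in its called region, 68 bp from its nearer end (log2 -0.40, limma adjusted p = 0.0389). High and low libraries were separate at all of these. Klf6, a zinc finger factor gene, had 418, 412 and 430 against 502, 455 and 487 (log2 -0.20, limma adjusted p = 0.0324). Summit reads at Klf6 differed by 0.02 on the log2 scale. Both regions near Il21, a cytokine gene, had a log2 difference of -0.40, at 27147 and 28404 bp from its start with overlapping windows.

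The other lower regions named were near genes outside the T cell lists. Gng12, a G protein gamma subunit gene, had 115, 108 and 107 against 150, 147 and 169 local reads at its start (chr6:66896126-66897002, log2 -0.50 ± 0.09, limma adjusted p = 0.000697). Gimap7, which encodes a GTPase expressed in lymphocytes, had 52.6, 63.1 and 68.5 against 99.6, 95.8 and 94.5, 7069 bp from its start (log2 -0.66, limma adjusted p = 0.000866). A region inside Gabrb1, a GABA-A receptor subunit gene, had 81.8, 75.5 and 74.1 against 132, 107 and 110 (log2 -0.59). Nsun6, an RNA methyltransferase gene, had the steepest difference among the 65 lower regions, 25.3, 32.5 and 18.8 against 53.5, 48.4 and 44.1 (1.95-fold lower, log2 -0.96 ± 0.20). Myo10 (2 regions), Abtb1, Dmac1 and Senp6, a SUMO protease gene, completed the list with log2 differences of -0.54 to -0.34. As in the other named regions, no low library fell within the range of the high ones.

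**Figure D3:**
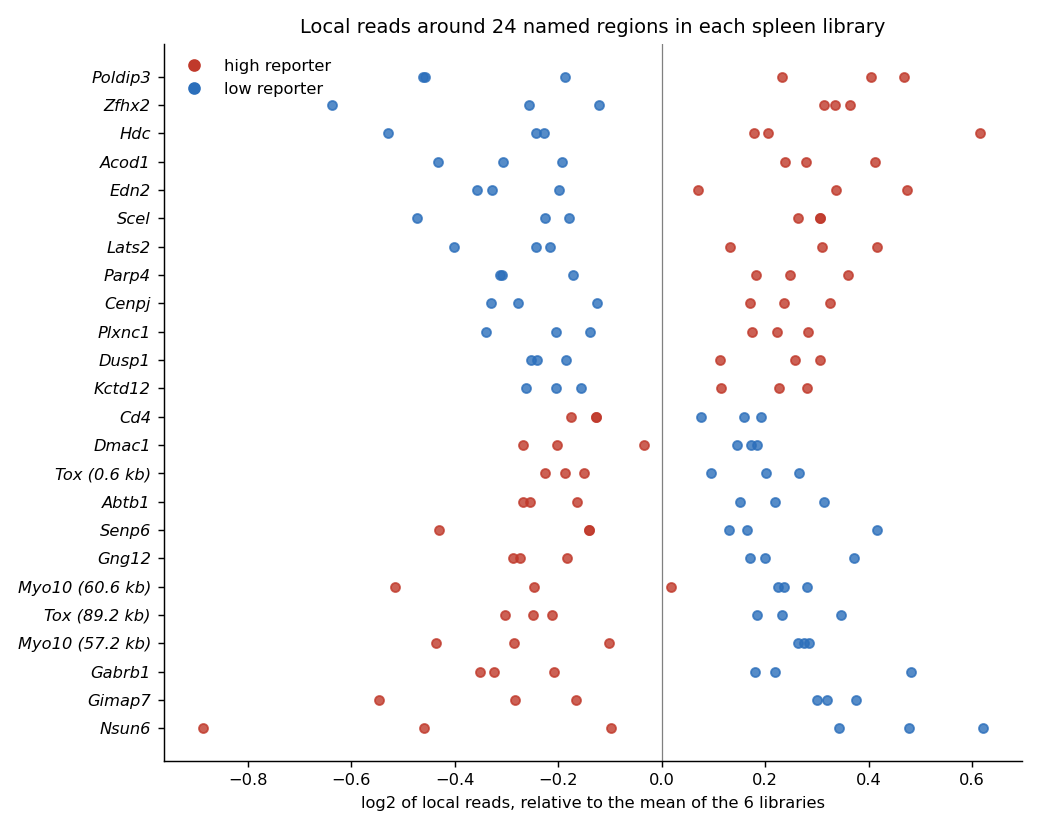
Log2 of local reads relative to the mean of the 6 libraries at the 24 named regions outside the Nr4a1 block (12 higher, 12 lower in high cells), 1 point per library. Genes with 2 regions carry the distance from the gene start. Red (high) and blue (low) points stand apart in every row, by least at Dmac1 and Cd4.

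Of the 33 regions named from this test, counting 4 of Nr4a1 and those of the lists, 14 kept an adjusted p under 0.05 in every alternative run: the 4 Nr4a1 regions, Kctd12, Dusp1, Poldip3, Cd4, Gng12, Gimap7, Gabrb1, Abtb1, the Tox region at 89166 bp and the Myo10 region at 57170 bp. None of the 33 changed sign. The alternatives for local reads did not include a fit without the variance trend, the setting that kept 0 of the 18 summit calls. Leaving out high replicate 1 took the adjusted p (limma) of Edn2 to 0.114, Plxnc1 to 0.0794, Dmac1 to 0.0715, Cenpj to 0.053, Cd28 to 0.0715 and Klf6 to 0.143. Without high replicate 2, limma gave 0.0752 at Acod1, 0.0636 at Cenpj, 0.0681 at Lats2, 0.0632 at Parp4, 0.123 at Cd28 and 0.109 at Klf6. Of the 112 calls, 38, 68 and 29 were kept without high replicates 1, 2 and 3 and 53, 73 and 58 without low replicates 1, 2 and 3. Without high replicate 3 the limma values were 0.184 at Hdc, 0.147 at Myo10 (60574 bp), 0.128 at Senp6, 0.0801 at Nsun6, 0.0713 at Lats2 and Zfhx2, 0.0681 at Acod1, 0.0606 at Parp4, 0.056 at Plxnc1 and at the Tox region at 597 bp, 0.0528 at Dmac1 and 0.0501 at Scel. Cd28 then had 0.131, Klf6 0.0801 and the Il21 regions 0.287 and 0.245. Without low replicate 1 they were 0.116 at Senp6, 0.0527 at the Tox region at 597 bp, 0.169 at Cd28 and 0.18 at Klf6, and without low replicate 2 they were 0.0954 at Zfhx2 and 0.159 at Cd28. Leaving out low replicate 3, the shallow library, gave 0.0727 at Hdc, 0.0708 at Plxnc1, 0.0579 at Acod1, 0.0556 at Cenpj and 0.123 and 0.0876 at Il21. The Il21 regions also missed at 0.0818 and 0.0665 without high replicate 1, at 0.184 and 0.19 without low replicate 2, and the farther one at 0.0527 without low replicate 1.

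The count of higher regions, 47, fell to 22, 31 and 19 without high replicates 1, 2 and 3. Lower regions, 65 in all, numbered 18 and 11 without high replicates 1 and 3 and 30 and 41 without low replicates 1 and 2. With each library scaled to its genome background in place of the median ratio, 39 were higher and 89 lower, and Klf6 was no longer called (limma adjusted p = 0.0933).

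Few regions of the gene lists were called. In the list of 24 proximal TCR signalling genes, 34 regions were tested for local reads, of which 0 were higher and 3 lower, Cd4 and Cd28 among them (0.434% and 0.6% over all regions), with a median log2 difference of -0.10 against 0.0 over all regions. The list of 24 TCR-induced and activation genes had 40 tested regions with 4 higher, all at Nr4a1, and 2 lower, both at Tox, and a median of -0.09. Naive state and quiescence genes had 1 of 45 lower (Klf6) and a median of -0.06, and helper, effector and memory genes had 2 of 23 lower (Il21) and a median of -0.11. Brakes on TCR signalling (44 regions), transcription factors of the AP-1, IRF, NFAT and NF-kB families (41), regulatory T cell and anergy genes (15), interferon response genes (16) and housekeeping genes (18) had none called in either direction, with medians of -0.04, 0.04, -0.03, -0.11 and 0.03. The naive CD4 T cell markers had 2 of 24 lower and a median of -0.11, Cd4 and Cd28 being members of both this list and the TCR signalling list. All regions are no matched base for these list medians, as 65.1% of them lay within 1000 bp of a gene start. Local reads had a median log2 difference of 0.023 there and of -0.055 at more than 10000 and up to 100000 bp. How much of the list medians goes with this distance was not tested. No region of the B cell, CD8 T cell, NK cell, dendritic, erythroid or stromal marker lists was called, of 1 to 4 tested in each, and no myeloid marker region was tested.

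By summit reads, 13 regions were higher in high cells (0.119% of 10916) and 5 lower (0.0458%), 0.165% in all, by limma. At an unadjusted p under 0.05 there were 494 (4.53%) and 471 (4.31%), 8.84% together. Outside the Nr4a1 block, 8 were higher. Mvb12a, a gene of the ESCRT-I sorting complex, had 29.2, 19.8 and 24.8 summit reads in high and 14.5, 8.96 and 12.5 in low libraries at its start (chr8:71542578-71543158, 2.07-fold, log2 1.05 ± 0.22, limma adjusted p = 0.00434). Fam214b had 28.2, 25.7 and 29.7 against 14.5, 12.9 and 15.6 at its start (log2 0.96 ± 0.20). The groups were separate at both, and over the alternatives the largest limma adjusted p was 0.214 at Mvb12a and 0.247 at Fam214b. Ost4, a subunit gene of the oligosaccharyltransferase, had 31.2, 22.7 and 32.7 against 21.2, 14.9 and 12.5, and Ddx23, a splicing helicase gene, 20.1, 14.8 and 21.8 against 7.71, 8.96 and 10.4. Scel, Specc1l, Ubl3 and Trappc2l, a TRAPP complex gene that was 1 beyond the 12 to be named, made up the rest with log2 differences of 0.82 to 1.04.

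The 5 lower regions were all outside the block. Gabrb1 had 23.1, 21.7 and 25.8 summit reads in high against 40.5, 40.8 and 36.4 in low libraries (log2 -0.74 ± 0.16, limma adjusted p = 0.00738). A region inside Epas1, which encodes the hypoxia-inducible factor HIF-2 alpha, had 12.1, 9.88 and 7.93 against 22.2, 18.9 and 19.7 (chr17:86801725-86802337, 2.06-fold lower). Gng12 had 26.1, 25.7 and 24.8 against 36.6, 36.8 and 45.7, with the same direction in its local reads. Nsun6 (14.1, 12.8 and 17.8 against 27.0, 27.9 and 24.9) and Map3k13, a kinase gene upstream of JNK (5.03, 8.89 and 7.93 against 15.4, 18.9 and 11.4), closed the list. High libraries lay below low ones at each of the 5. Of these 18 calls, 5, 8 and 5 held without high replicates 1, 2 and 3, and 8, 5 and 10 without low replicates 1, 2 and 3, where the totals were 4, 8, 3, 9, 6 and 15 higher and 1, 0, 2, 0, 0 and 2 lower. None of the 17 regions named from summit reads was called in every alternative. Scaled to the genome background, 14 were higher and 2 lower.

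Presence of a peak picked out weaker regions. All high and no low libraries had a peak at 205 regions (0.803% of 25531) and the reverse at 96 (0.376%), which 3 against 3 libraries cannot test, as no exact p can fall below 0.1. Their median −log10 p, averaged over the 3 libraries with a peak, was 9.75 and 9.54, against 18.4 at regions present in all 6. By the authors' values the strongest of the 205 lay 11167 bp outside Siah3 on chromosome 14 (chr14:75444608-75445023), with −log10 p of 14.4, 18 and 15.1 in the 3 high libraries. Mctp2, Yae1d1, Magi2 (a scaffold gene), Gramd1b (a cholesterol transporter gene), Rora (an orphan nuclear receptor gene of helper and innate lymphoid cells), Atp13a2 and Avpr1a (a vasopressin receptor gene) followed, with mean folds of 7.94 to 8.8. In the lymph nodes, the region near Atp13a2 (3361 bp from its start) had a peak in 1 mesenteric high library alone. The Rora region had one in all 6 mesenteric libraries and in 1 low and 2 high axillary ones.

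Regions with peaks only in low libraries were led by Pum2, which encodes an RNA-binding repressor (chr12:8662178-8662541, 11775 bp from its start, −log10 p of 17.9, 16.7 and 9.3). Ifi206, an interferon-inducible gene, had 15.0, 15.0 and 11.3 at its start, and Pex5 (the peroxisomal import receptor), Ampd1 (AMP deaminase), Adipor2, Cldn10, Ube2d1 and Lsp1 (an actin-binding protein of lymphocytes) had mean values of 12 to 13.6. In the lymph nodes the Lsp1 region had a peak in 1 mesenteric high and 1 axillary low library, while the Cldn10 region lacked one in only 1 mesenteric low library. Of the 205 regions 26.3%, of the 96 regions 17.7% and of all 25531 regions 38.5% had their centre within 1000 bp of a gene start. The last share includes the 10916 regions present in all 6 libraries, 64.8% of them near a start, which by definition belong to neither class. It is therefore no like base for the 205 and the 96. Chromosome 14 held 16 of the 205 (7.8%), 3 of the 96 (3.12%) and 4.19% of all. Without low replicate 3, the counts of regions with all of one level and none of the other were 284 and 390. Without any 1 of the other libraries they were 411 to 475 and 190 to 210, and a missing library loosens the rule by construction.

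The numbers of peaks overlapped between the levels. High libraries had 17298, 17645 and 17960 peaks and low libraries 18008, 17564 and 14514 (17634 ± 331 against 16695 ± 1902, exact permutation p = 0.7). Without low replicate 3, the mean of high libraries was lower by 152 (value -152). Summits within 1000 bp of a gene start made up 50.6%, 49.7% and 49.2% of peaks in high and 48.5%, 49.4% and 54.9% in low libraries (exact permutation p = 0.9), a difference of -1.07 percentage points that became 0.884 without low replicate 3.

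Small differences went with the distance from gene starts. Regions within 1000 bp of a gene start had a median log2 difference of local reads of 0.023 (7044 regions) and those beyond 100000 bp one of -0.094 (533 regions). Within 1000 bp of a start lay 22 of 35 higher regions outside the block (62.9%) and 17 of 65 lower ones (26.2%), against 65.1% of all tested. Per library, the median at start regions less that beyond 10000 bp was higher in each high than in each low library, at 0.040 ± 0.027 against -0.046 ± 0.03 log2 (SD, n = 3 each, exact permutation p = 0.1).

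Chromosomes 14, 11 and 19 had more local reads in high cells at most of their tested regions, and chromosomes 16 and 6 fewer. Where along a chromosome these regions lie was not examined. Of 448 tested regions on chromosome 14, 69.6% were higher in high cells, with a median log2 difference of 0.099. The library medians were 0.045, 0.062 and 0.053 in high and -0.045, -0.058 and -0.033 in low libraries, relative to the mean of the 6. Chromosome 11 had 67.4% of 666 regions higher (median 0.089), chromosome 19 had 63.7% of 278, chromosome 6 had 38.4% of 604 and chromosome 16 had 36.1% of 424. All 3 high libraries lay on one side of all 3 low ones in each of these 5. The same held on chromosomes 7, 8, 10, 12, 13 and X, where the median differences were smaller (-0.036 to 0.021), so it is not particular to the 5. Chromosome 14 carried 10 of the 35 higher regions outside the block and 1 of the 65 lower ones, and Kctd12, Scel, Lats2, Parp4, Zfhx2, Cenpj and Acod1 lie on it. With each library's values centred within each chromosome, an alternative added later, Kctd12 and Scel were still called, while the limma adjusted p was 0.0533 at Lats2, 0.0636 at Parp4, 0.0523 at Zfhx2, 0.0745 at Cenpj and 0.0656 at Acod1. On other chromosomes this centring also ended the calls at Klf6 (limma adjusted p = 0.214), Cd28 (0.0719) and both Il21 regions (0.0845 and 0.0743), and 72 of the 112 calls were kept. GC content was known for the promoters of 5914 of 7044 start regions (84.0%). In 3 classes of rising GC, the median difference was 0.131, 0.111 and 0.093 on chromosome 14, 0.057, 0.096 and 0.112 on chromosome 11, and 0.008, 0.029 and 0.03 over all chromosomes. The part of GC outside promoters in these shifts was not tested.

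**Figure D4:**
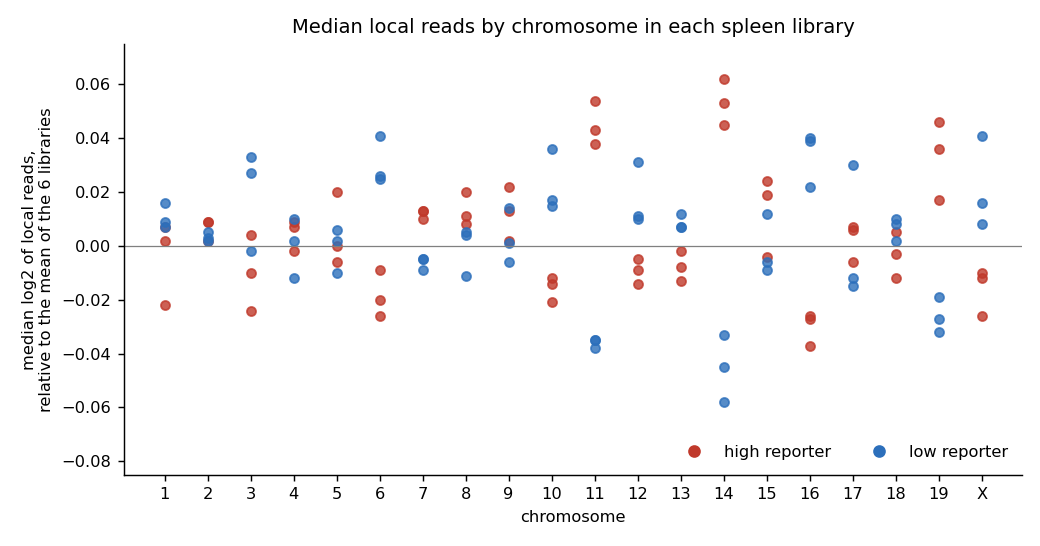
Median log2 of local reads relative to the mean of the 6 spleen libraries, by chromosome, 1 point per library (red high, blue low). Chromosome 14 lies at 0.045 to 0.062 in high libraries and at -0.058 to -0.033 in low ones, and chromosome 11 at 0.038 to 0.054 and -0.038 to -0.035.

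The difference between high and low cells was not the same in spleen and mesenteric nodes. Tested as an interaction on summit reads over 10231 regions, high minus low was larger in spleen at 34 (0.332%) and smaller at 11 (0.108%), 0.44% in all, by limma. Larger in spleen were the start regions of Rab22a, a Rab GTPase gene, Larp1b, Yipf6 and Sipa1l2. Rab22a had 33.1 ± 2.63 summit reads in low and 41.3 ± 2.08 in high spleen cells, and 42.2 ± 2.68 in low and 22.2 ± 3.23 in high mesenteric cells (SD, n = 3 each). The log2 differences were 0.32 in spleen and -0.93 in mesenteric nodes, and their difference was 1.25 ± 0.21 (limma adjusted p = 0.000175). Smaller in spleen were Pcgf5 (a Polycomb ring finger gene, -0.21 in spleen and 1.39 in mesenteric nodes), Epas1 (-1.04 and 0.43), Map3k13 (-1.08 and 0.42) and Atxn7. Cd4 (-0.33 and 0.15, difference -0.49 ± 0.12) and Ccr7, the lymph node homing receptor gene (-0.59 and 0.39, difference -0.98 ± 0.26), were the 2 list members called.

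Local reads, used in the same test as an addition after the values were seen, gave 79 larger (0.777% of 10170) and 81 smaller (0.796%) in spleen, 1.57% in all. Every list member called was smaller in spleen, at 21 regions. Cd4 had 641 ± 26.6 local reads in low and 526 ± 10.3 in high spleen cells, against 680 ± 14.4 and 761 ± 4.57 in mesenteric cells (difference -0.45 ± 0.05, limma adjusted p = 2.58e-08). Cd28 had 127 ± 11.3 and 95.6 ± 5.18 against 113 ± 10.9 and 136 ± 5.33, 68 bp from its nearer end. Ctla4, an inhibitory receptor gene, hardly differed in spleen (72.8 ± 7.2 and 72.0 ± 5.2) and had 68.4 ± 4.58 and 107 ± 8.67 in mesenteric cells. The naive CD4 T cell markers had 7 of 23 regions smaller and a median of -0.38, naive state and quiescence genes 7 of 43, proximal TCR signalling genes 5 of 31, and brakes on TCR signalling 3 of 41, against a median of 0.0 over all regions. Housekeeping and interferon response genes had 0 of 17 and 0 of 15.

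**Figure D5:**
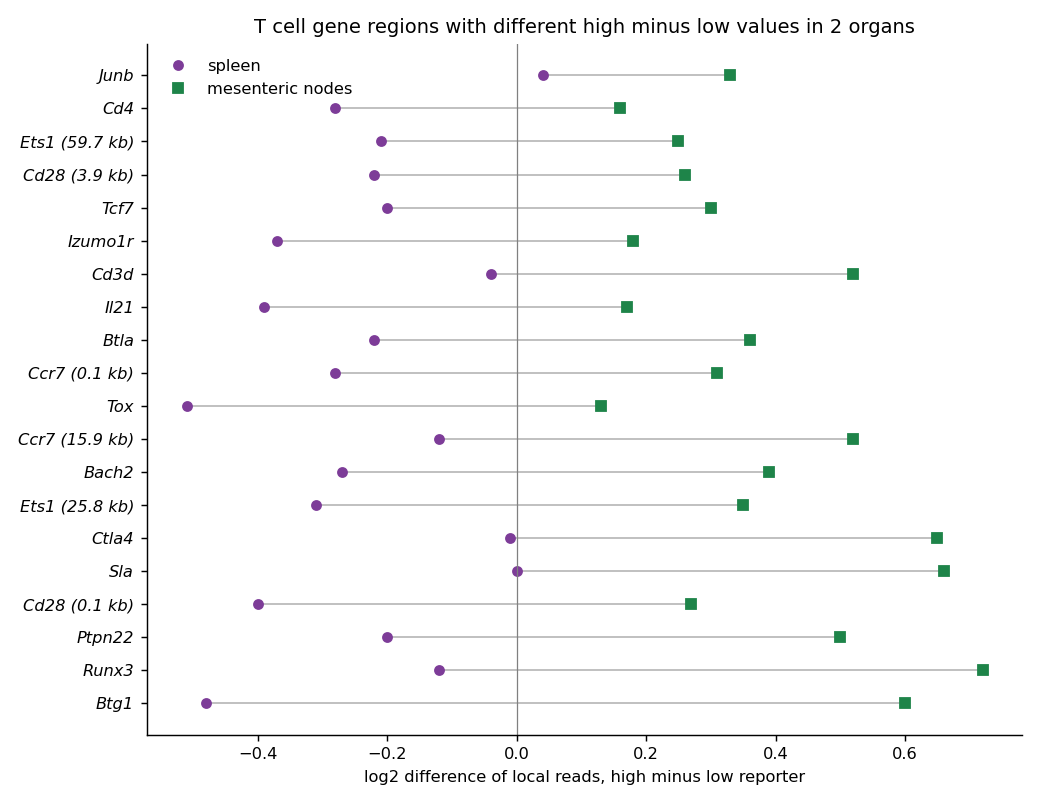
Log2 difference of local reads, high minus low reporter, in spleen (circles) and mesenteric nodes (squares) at 20 of the 21 list regions whose difference was called. Genes with 2 regions carry the distance from the gene start. Every square lies to the right of its circle, and the spleen values run from -0.51 at Tox to 0.04 at Junb.

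Values that moved with these organ differences stand beside them. Depth was 13.7 ± 0.462 and 12.5 ± 2.38 reads per 10 kb in high and low spleen libraries (SD, n = 3 each, exact permutation p = 0.7), and 16.5 to 16.6 in high against 11.7 to 12.6 in low mesenteric libraries. Regions larger in spleen lay within 1000 bp of a gene start in 74 of 79 cases by local reads and those smaller in 14 of 81, against 67.3% of regions tested. The part of depth and of distance from gene starts in the organ difference was not tested. Without mesenteric high replicate 3 or spleen low replicate 2, the 34 became 21 and 20, and the 11 became 4, 4, 6, 7 and 5 without mesenteric high replicates 1, 2 and 3 and spleen low replicates 1 and 2. Scaled to the genome background, 52 were larger and 3 smaller.

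Against axillary nodes, 0 of 8910 regions were called by summit reads with limma in either direction (0.0%), with 285 and 258 at an unadjusted p under 0.05 and a smallest adjusted p of 0.512. Depth was 8.48 to 10.2 reads per 10 kb in axillary and 9.84 to 14.4 in spleen libraries, and its part in this count was not tested. Local reads gave 1 larger (0.0113% of 8879) and 4 smaller (0.0451%) in spleen, 0.0563% in all, and all 5 are named although no rule covered them. At Ddit3, high cells lay above low cells in spleen and below them in axillary nodes (110 ± 5.78 to 142 ± 10.5 against 97.7 ± 7.66 to 72.4 ± 0.775 from low to high, difference 0.79 ± 0.15, limma adjusted p = 0.0015). Cd4 differed by -0.32 ± 0.07, with log2 differences of -0.28 in spleen and 0.04 in axillary nodes (limma adjusted p = 0.0124). The other 3 were Nr4a1 regions, where high cells exceeded low cells in both organs and by less in spleen. At the Nr4a1 start, low and high cells had 761 ± 58.7 and 1236 ± 7.24 local reads in spleen and 742 ± 23.4 and 1498 ± 6.53 in axillary nodes, log2 differences of 0.70 and 1.01.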

How the data were processed

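The deposited files are 1 MACS narrowPeak list per library on mm10; the submitters' processing notes name Trimmomatic 0.33, MACS, Bowtie2 and bedtools. The treatment of duplicates and of the Tn5 offset and the caller settings are not stated there. Each peak has, per the authors' deposited lists, a score, a fold (a ratio of summit to background reads), a −log10 p and a −log10 q. The score and the −log10 q were not used further.

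Chromosomes 1 to 19 and X were kept (102989 spleen peaks, 137 set aside). Whole summit reads and 10 kb local reads were recovered as the only pair that gives both the deposited fold and −log10 p: all peaks matched within 0.002, 98.5% to 99.5% by a single pair in spleen, and local reads were whole within 0.02. This assumes fold = (reads + 1)/(background + 1) and a Poisson p. Overlapping peaks of all 18 libraries were merged, and each region took its strongest peak per library. Regions were named by the nearest start of 21631 protein-coding genes (RefSeq, GRCm38.p6), the nearer end being used for 4357 without a listed start, and assigned to lists within 100000 bp.

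Log2 reads, scaled to the median ratio, were tested with limma 3.58.1 (trend, Benjamini-Hochberg at 0.05) over regions with a peak in every library. Library values used two-sided exact permutation tests. The deposited columns are not counts, and no count model was fitted to the recovered reads. Reads were also simulated as independent Poisson draws, with 200 regions changed and no scatter between libraries beyond counting and depth. In these reads, limma recovered 8% and 77.5% of 1.5-fold and 2-fold changes in summit reads (10916 regions) and 85.5% and 99% in local reads (10833 regions). Unchanged regions called numbered 1 and 10 for summit reads and 9 and 9 for local reads. Same-numbered high and low libraries did not deviate together (r = -0.018, 0.037 and 0.005).

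Members and lists were chosen with earlier results of these data known. Named are the 12 called regions per direction with the smallest p (summit reads), 8 per direction with the highest mean −log10 p (presence), 4 per direction (organs), all regions of Nr4a1 to Nr4a3, Egr1 to Egr3, Cd5 and Cd69, and called list members. The rule of 12 was carried over to local reads after their values were seen. Alternatives changed scaling, filters, region merging, the variance trend and the libraries included. For local reads within spleen, filters, region merging and the variance trend were left as they were. Some members of these lists are not reported here.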

Additional observations from a re-analysis of the deposited data

Results flagged for a closer look

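These results passed the test of a difference between organs, limma's interaction of organ and reporter level, on the log2 scale as high minus low in spleen less the same in lymph nodes. Against mesenteric nodes and by summit reads, the difference was 1.25 at Rab22a, 0.87 at Larp1b, 0.94 at Yipf6 and 1.28 at Sipa1l2, at all 4 with high cells below low cells in the nodes. It was -1.61 at Pcgf5, -1.47 at Epas1, -1.49 at Map3k13 and -1.0 at Atxn7. At Epas1 and Map3k13 high cells were below low cells in spleen and above them in the nodes. The T cell genes Cd4 and Ccr7 differed by -0.49 and -0.98 with the same change of sign.

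Against axillary nodes and by local reads, the difference was 0.79 at Ddit3 and -0.32 at Cd4. Regions of Nr4a1 differed by -0.35, -0.31 and -0.3, where high cells exceeded low cells in both organs.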

How the results depend on the processing

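No alternative reversed the direction of a region called by local reads. For summit reads (13 higher, 5 lower), requiring 1 peak per library with summits within 100 bp left 5 and 1, and testing the deposited fold, or fitting no variance trend, left 0 and 0. The fold also reversed the Nr4a1 region at 8209 bp (log2 -0.29). Lower regions numbered 2 by genome background scaling, 3 at a mean of 20 reads or more and 3 at a −log10 p of 10 or more in all libraries. Without the Nr4a1 block, 8 were higher; this, centring within chromosomes and local reads in the organ test were chosen after seeing the data. With 1 library left out, the counts ranged over 3 to 15 and 0 to 2, and for local reads (47 and 65) over 19 to 47 and 11 to 56. The replicate block gave 11 and 2 by summit and 28 and 23 by local reads, and the numbers do not pair the samples. In the organ test the block gave 34 and 10 against mesenteric and 0 and 0 against axillary nodes. Genome background scaling gave 52 and 3 against mesenteric nodes, local reads 79 and 81, and 1 library left out 20 to 46 and 4 to 15. Local reads gave 1 and 4 against axillary nodes.

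Regions with peaks in high libraries only (205) numbered 133 at a −log10 p of 10 or more, 109 at equal list length, where low-only regions numbered 123, and 284 to 475 with 1 library left out. Low-only regions (96) numbered 232 when a peak had to cover at least 50% of the region and 190 to 390 with 1 library left out. The difference in peak number (939) ranged over -152 to 1595. The share near starts differed by 0.104 points at the stricter p, 0.661 at equal list length and -2.27 to 0.884 with 1 library left out. Except where fewer regions or samples were tested by construction, the cause was not tested. Summit reads had a median of 14 to 15 per library, and on simulated Poisson reads limma recovered 8% of 1.5-fold changes in them. The part of depth in these counts was not tested.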

Other observations

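Genes of inducible transcription factors were not called, which is near the 1.03% called by local reads over all regions. Of 41 tested regions in the list of AP-1, IRF, NFAT and NF-kB family genes, 6 were higher and 2 lower at an unadjusted p under 0.05 (limma), where 6.52% and 7.43% of all 10833 regions were. A region near Fosl2 had 148, 127 and 127 local reads in high and 113, 101 and 115 in low libraries (limma adjusted p = 0.126), and Nfkb2 had 87.7, 70.7 and 85.4 against 66.4, 56.2 and 65.5 at its start (limma adjusted p = 0.147). Atf3 (2 regions), Fos and a region of Nfkbiz were the other higher ones, and the 2 lower ones were a second region of Nfkbiz (log2 -0.30) and one of Nfkb1 (log2 -0.33). They were singled out after their values were seen.

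Lists with more lower than higher regions at that threshold included proximal TCR signalling (0 higher and 9 lower of 34) and naive state genes (0 and 8 of 45). Of 23 tested regions of helper, effector and memory genes, 0 were higher and 7 lower, where 6.52% and 7.43% of all regions were, and the Il21 regions alone passed adjustment. The 7 included 3 regions of Prdm1, which encodes the repressor Blimp-1, with log2 differences of -0.47 to -0.30, and a region near Id2 (149, 163 and 136 against 155, 185 and 212, limma adjusted p = 0.0832). Whether distance from gene starts played a part in these list counts was not tested. In promoters that lay wholly inside tested regions, the NFAT core string was in 13.0% of 4805 genes, in 9.14% of 339 whose region had more local reads in high cells at an unadjusted p under 0.05 and in 19.4% of 252 with fewer. The GGGCGG string was in 76.8%, 79.9% and 74.2%. These shares are a description without a test.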
